A study of Homo sapiens with 45 samples.

Results

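SKOV3 is an established human ovarian cancer cell line, and the results below concern what changed in its messenger RNA when it received a precursor of the microRNA miR-203a. The comparison takes every probe set of 6 of the 45 arrays of the series, the 3 titled as SKOV3 with miR-203a and the 3 titled as SKOV3 with the negative-control precursor, miR-NC. Cells of both groups grew in 6-well plates, received 33 nM of a Pre-miR precursor with a Lipofectamine reagent, and gave RNA 48 h later, so that by their labels they differ in the precursor alone. The series gave the same control and the precursors of miR-203a, miR-205 and miR-429 to 3 cancer lines, the ovarian lines SKOV3 and HEY and the prostate line PC3, and also holds arrays labelled untransfected. Its purpose, as the series describes it, was to follow gene expression after each transfection. Total RNA was amplified from its 3′ end, labelled with biotin and hybridised, and the authors' values are log2 intensities, so a difference of 1 is a 2-fold change. The labels do not say that the 3 arrays of a group came from separate cultures, so every p-value measures only the spread between arrays.

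A microRNA is a short RNA that guides an Argonaute protein to messenger RNAs, chiefly through pairing of its seed with sites in their 3′ untranslated regions, after which the messengers are translated less and degraded. A transfected precursor therefore acts first on transcripts that carry its site, and further transcripts follow through the proteins that these encode. miR-203a is best known from the epidermis, where it accumulates as keratinocytes leave the basal layer and holds back the transcription factor p63.

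The mature sequences are shown because the precursors share no seed, which makes the miR-205 and miR-429 arrays of the same line a second yardstick beside miR-NC. Capitals mark the seed, bases 2 to 8 from the 5′ end, and the sequences are those of RefSeq on GRCh38.p14. The labels do not name an arm, so both arms of miR-203a are given.
hsa-miR-203a-3p: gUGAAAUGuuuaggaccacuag
hsa-miR-203a-5p: aGUGGUUCuuaacaguucaacaguu
hsa-miR-205-5p: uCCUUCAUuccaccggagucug
hsa-miR-429: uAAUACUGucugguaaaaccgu
Both miR-203a arms lie on the plus strand of chromosome 14, hsa-miR-203a-3p at chr14:104117469-104117490 and hsa-miR-203a-5p at chr14:104117431-104117455. hsa-miR-205-5p lies at chr1:209432166-209432187 and hsa-miR-429 at chr1:1169055-1169076, also on the plus strand.

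The 6 arrays were closely matched. Arrays of the same group correlated at 0.994 to 0.995 across probe sets and arrays of different groups at 0.989 to 0.990, and array medians lay between 4.91 and 4.94. Of 12 markers of SKOV3 and ovarian epithelium, 10 lay above 4.89, the median of all values and here the level taken as near background. Their summed level was 103.9 to 104.7 on the miR-203a arrays and 103.6 to 103.7 on the miR-NC arrays, so slightly higher with miR-203a. None of the 11 tested passed the test in the fit of all 45 arrays. Without the arrays labelled untransfected 2 of the 11 rose (18.2%, where 8.99% of all genes rose in that fit). Markers of blood, fibroblasts and endothelium gave no called gene in either fit, with 2 of 9, 3 of 8 and 2 of 7 above 4.89. Prostate luminal markers, of which 6 of 8 lay above 4.89, summed to 42.6 to 43.1 with miR-203a and 44.3 to 45.3 with miR-NC, and 1 of them, the surface protein STEAP1, fell by 1.03 ± 0.14 to a mean of 4.44, against 5.47 with miR-NC. The probe set at the 5′ end of GAPDH, a check of RNA integrity and labelling, differed by -0.0039 between the groups. All 18 hybridisation control probe sets of E. coli and phage P1 origin were lower with miR-203a than with miR-NC, by a median of -0.30. Against the miR-205 arrays the median of the same 18 was -0.05, and against the miR-429 arrays -0.02, so on these probe sets miR-NC stood apart from the other SKOV3 groups. Of 27 control probe sets of B. subtilis origin, 20 were higher with miR-203a than with miR-NC. Their median difference was 0.03, with a range of -0.29 to 0.25. The part of these controls and of the prostate markers in the gene differences was not tested.

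The arrays labelled untransfected enter no comparison here but do enter the estimate of the spread, and 6 of the 9 went against their labels, correlating best with the miR-NC mean of another line. Those labelled HEY correlated at 0.93 to 0.95 with the SKOV3 miR-NC mean and at 0.76 to 0.79 with that of HEY, and those labelled PC3 at 0.95 with HEY and 0.86 with PC3. Without all 9 the count of changed genes against miR-NC was 2453 (1402 higher and 1051 lower), where all arrays gave 1863. The direct contrasts then gave 4786 genes against miR-205 and 3936 against miR-429, and the difference in response between SKOV3 and HEY 1197 genes, where all arrays gave 730.

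miR-203a changed 1863 of 15599 tested genes (11.9%) relative to miR-NC, at an adjusted p under 0.05 in limma with Benjamini-Hochberg adjustment. Of these, 1102 rose (7.06% of the genes tested) and 761 fell (4.88%). Counts of rises and falls on the gene lists below are to be read beside these shares, which several lists come near. At least 2-fold changes were seen for 362 genes, 1.31% of the genes tested as rises and 1.01% as falls. The median change over all genes was 0.0039, and the groups' arrays did not overlap for 5478 genes (35.1%), so separation of 3 arrays from 3 was common and carries little on its own. RNA came from whole wells, and fewer cells with a transcript cannot be told apart from less of it per cell.

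Rises and falls differed in how they stood against the other precursors. Directly against miR-205, 3925 genes differed (25.2%), 9.58% higher and 15.6% lower with miR-203a, and against miR-429 3058 differed (19.6%), 7.08% higher and 12.5% lower. The balance moved with scaling: after quantile normalization 1786 were higher and 2053 lower than with miR-205, 1413 higher and 1670 lower than with miR-429, and 981 higher and 904 lower than with miR-NC. With array medians subtracted, 1314 were higher and 2706 lower than with miR-205, and 907 higher and 2134 lower than with miR-429. Of the 761 genes that fell, 388 (51.0%) were also lower with miR-203a than with miR-205 and lower than with miR-429 in direct contrasts, where 7.87% of all genes met both criteria. Of the 1102 that rose, 137 (12.4%) were directly above both, where 2.55% of all genes were. Among changes of at least 2-fold the shares were 83.4% of falls (131 genes) and 15.1% of rises (31 genes). A further 431 rises and 143 falls differed directly from neither precursor, and 60 rises lay below both other precursors, against 4 falls that lay above both. The contrasts use the same 3 miR-203a arrays, so noise on these arrays enters each of them. The count of 137 was 83 without miR-203a replicate 2, 90 without replicate 3, and 214 when the untransfected arrays did not enter the estimate of the spread. The count of 388 lay between 321 and 357 whichever of the 6 arrays was left out, and was 525 without the untransfected arrays.

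**Figure D1:**
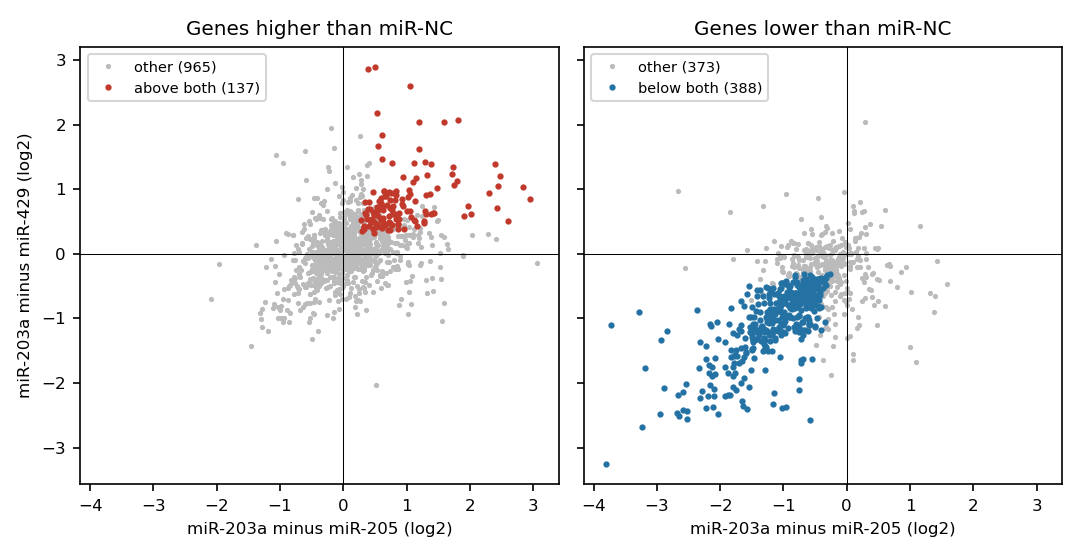
Direct log2 differences of each gene that passed the test against miR-NC, miR-203a minus miR-205 on the horizontal and miR-203a minus miR-429 on the vertical axis; coloured points differ from both in the direction of the change against miR-NC. Falls spread along the lower left, with 388 of 761 below both, whereas rises lie around the origin, with 137 of 1102 above both.

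Among the falls, a stress kinase stood first. MAP3K20, a kinase upstream of p38 and JNK that senses stalled ribosomes, read 8.33, 8.05 and 8.10 on the miR-203a arrays, against 10.88, 10.94 and 10.98 with miR-NC. The arrays were far apart, and the change was -2.77 ± 0.13 (SE, adjusted p = 9.8e-18), or 6.82-fold lower. With miR-205 and miR-429 the gene averaged 10.82 and 10.67, as high as with miR-NC. Its 7 probe sets split, with 4 falling by 1.97 to 2.77 and 3 showing differences of 0.17 to 0.53 that did not pass the test. Of 16 tested genes of the stress-activated MAP kinase list, 4 fell and 0 rose, with a median of -0.16. The other falls were MAP3K7, the kinase TAK1 that relays TGF-beta and cytokine signals (-0.66 ± 0.12), MAPKAPK3, a kinase downstream of p38 (-0.58 ± 0.13), and MAPK8, which encodes JNK1 (-0.52 ± 0.11). All 4 were also directly below miR-205 and miR-429. The most highly expressed members that did not pass were GADD45A (-0.09 ± 0.15), MAPK9 (0.24 ± 0.13) and MAP3K4 (-0.24 ± 0.12). ATF2, a transcription factor that JNK and p38 phosphorylate, read 7.04, 7.21 and 7.12, against 8.60, 9.31 and 9.02 with miR-NC, a change of -1.85 ± 0.16 (adjusted p = 3.7e-11).

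Single genes of sulfation and the heparan sulfate surface followed. PAPSS2, which makes the sulfate donor PAPS, read 6.28, 6.28 and 6.20 with miR-203a, against 8.76, 8.93 and 8.87 with miR-NC (-2.60 ± 0.17, adjusted p = 6.9e-14). GPC4, a glypican that carries heparan sulfate chains, read 5.47, 5.69 and 5.59, against 7.76, 7.81 and 7.93 with miR-NC (-2.25 ± 0.24, adjusted p = 7.8e-09). Both were high with the other precursors, PAPSS2 at 9.20 with miR-205 and 8.74 with miR-429 and GPC4 at 7.80 and 7.96. GPC4 has 2 probe sets, and the other differed by -0.31 and did not pass. SDC4, a syndecan of focal adhesions, averaged 11.06 with miR-203a and 12.23 with miR-NC, but its mean with miR-205 was 11.03 and that direct difference did not pass the test. CHST11, a chondroitin sulfotransferase, fell by 0.90 ± 0.10 on 1 of 3 probe sets, the others differing by -0.30 and 0.51, and their average of -0.23 did not pass. Of 22 tested genes of sulfate activation and transfer, 3 fell and 4 rose, among the rises SLC35B3, a Golgi transporter of PAPS (1.13 ± 0.13), and HS2ST1, a heparan sulfate sulfotransferase (0.74 ± 0.15). The list median was 0.04. Of 25 tested genes of proteoglycan cores and glycosaminoglycan synthesis, GPC4 and SDC4 were the 2 that fell and 0 rose, with a median of 0.01.

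**Figure D2:**
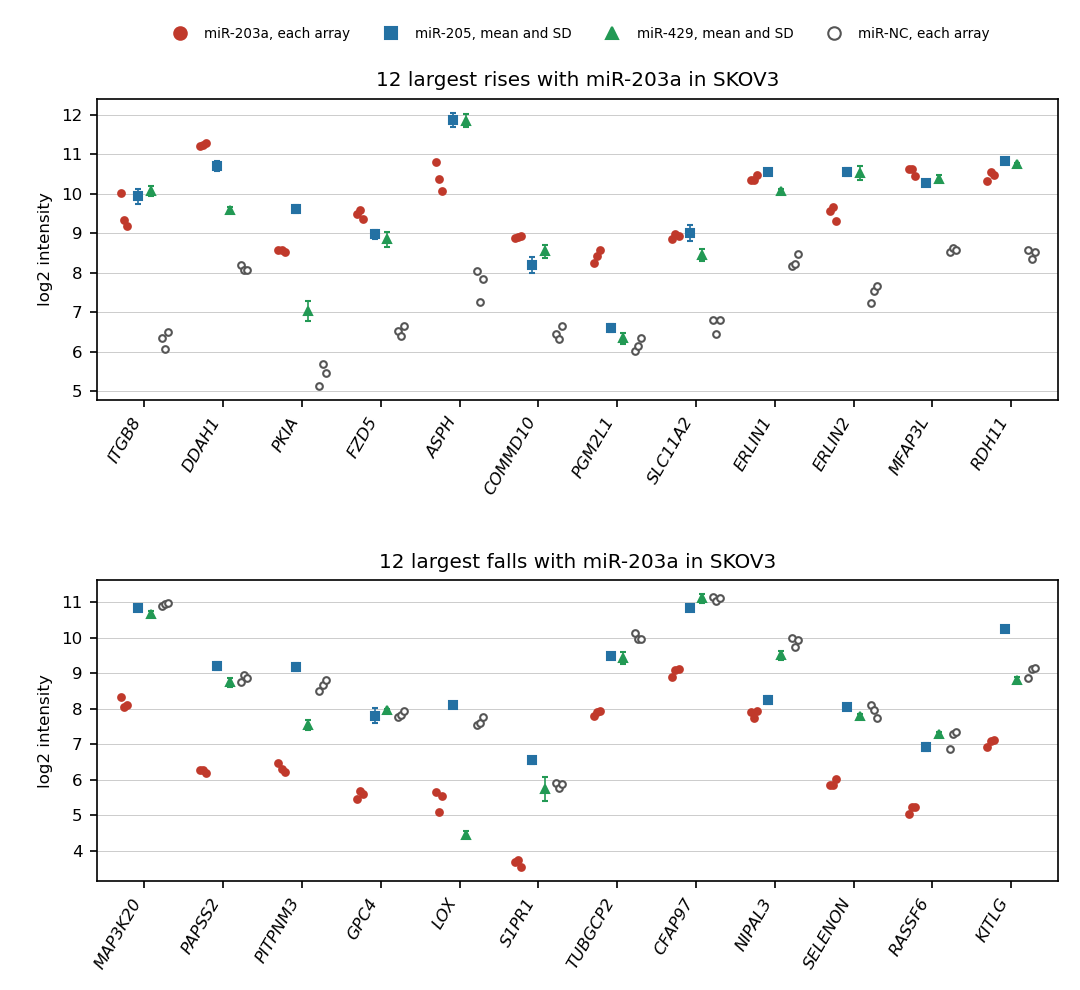
Log2 intensity of the 12 largest rises and the 12 largest falls with miR-203a whose arrays do not overlap those of miR-NC. Points are single arrays for miR-203a and miR-NC, and squares and triangles are the mean and SD of 3 arrays for miR-205 and miR-429. Most rises are about as high with the other precursors, and most falls are seen with miR-203a alone.

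Several receptors and ligands were also lower. S1PR1, a receptor for sphingosine 1-phosphate, averaged 3.66 with miR-203a, below 4.89 and so near background, and 5.86 with miR-NC (-2.20 ± 0.15). LIFR, the receptor for leukaemia inhibitory factor, averaged 6.36 with miR-203a and 8.12 with miR-NC (-1.76 ± 0.15, adjusted p = 5.0e-11). IL6ST, the gp130 subunit that LIFR pairs with, fell by 0.75 ± 0.12, and SOCS2, a feedback inhibitor of cytokine receptors, by 0.68 ± 0.13. All 4 lay directly below both other precursors. In contrast STAT3, the transcription factor that gp130 activates, rose by 1.23 ± 0.18 and read 11.43, 11.38 and 11.48, against 10.08, 10.33 and 10.18 with miR-NC. Its means with miR-205 and miR-429 were 11.33 and 11.20, and neither direct difference passed the test. Of 28 tested genes of the cytokine receptor and JAK-STAT list 3 rose and 3 fell. KITLG, the ligand of the KIT receptor, fell by 1.99 ± 0.34, MET, the receptor for hepatocyte growth factor, by 0.93 ± 0.16, and INSR, the insulin receptor, by 0.84 ± 0.21. Of 35 growth factor and receptor genes 3 rose and 5 fell, and of 36 genes of G protein-coupled receptors and cyclic AMP, the list of S1PR1, 4 rose and 7 fell. Over all genes tested, 7.06% rose and 4.88% fell.

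Another 6 of the 12 largest falls had varied roles. PITPNM3, of the phosphatidylinositol transfer protein family, averaged 6.34 with miR-203a and 8.66 with miR-NC (-2.32 ± 0.32). TUBGCP2, a subunit of the gamma-tubulin complex that nucleates microtubules, averaged 7.88 with miR-203a and 10.01 with miR-NC (-2.13 ± 0.22), and CFAP97 averaged 9.04 with miR-203a and 11.10 with miR-NC (-2.06 ± 0.11). SELENON, a selenoprotein of the endoplasmic reticulum, fell by 2.02 ± 0.21 and RASSF6, a RAS association domain protein, by 1.99 ± 0.18. These 5 were directly below both other precursors. NIPAL3 fell by 2.03 ± 0.19, but averaged 8.24 with miR-205, which did not differ from its 7.86 with miR-203a at the threshold.

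In the EGF receptor family 6 of 17 tested genes fell and 3 rose. HBEGF, a heparin-binding ligand, averaged 6.68 with miR-203a and 7.86 with miR-NC (-1.17 ± 0.18, adjusted p = 8.8e-06). CBLB and CBL, the ubiquitin ligases that mark active receptors for degradation, fell by 0.72 ± 0.14 and 0.52 ± 0.13. The adaptors SHC1 and GRB2 fell by 0.50 ± 0.14 and 0.37 ± 0.10. NRG1, the neuregulin ligand, rose by 1.33 ± 0.24 to 8.36, 8.35 and 8.29, against 7.01, 6.90 and 7.09 with miR-NC. It stood higher still with miR-429 (mean 9.06). NRG1 has 6 probe sets, 5 of them above the background level in some group. These 5 differed by 0.01 to 1.33, and only the 1 used here passed the test. The other probe set, near background in every group, differed by 1.04. Averaging all probe sets of a gene left 2 of the 6 falls. ERBB2 itself, which is amplified in SKOV3, differed by 0.37 ± 0.16 and did not pass.

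Downstream of these receptors the changes went both ways. Of 22 tested PI3K-AKT-mTOR genes 6 rose and 1 fell, led by DEPTOR, an inhibitor of mTOR (1.56 ± 0.28), PDPK1, the kinase that activates AKT (1.13 ± 0.11), and IRS1, an insulin receptor substrate (1.04 ± 0.15). None of the 6 was directly above both miR-205 and miR-429. Of 19 tested genes of the RAS-MAPK cascade, PHLDA1, which ERK signalling induces, fell by 1.52 ± 0.17 and MAP2K1, the kinase MEK1, rose by 0.70 ± 0.14. Among 27 AP-1 and immediate early genes, ATF2, FOSL2 (-0.89 ± 0.13) and EGR1 (-0.87 ± 0.19) fell and 1 rose.

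Adhesion and the cytoskeleton held several of the larger falls. SRC, the founding SRC-family kinase, read 5.75, 5.91 and 5.72 with miR-203a, against 7.66, 7.51 and 7.86 with miR-NC (-1.89 ± 0.25, adjusted p = 4.3e-07). SRC has 7 probe sets, 5 of them above the background level in some group. All 5 were lower with miR-203a, with changes of -1.89 to -0.11, but only the 1 used here passed the test. RAPGEF1, an exchange factor for the GTPase RAP1, fell by 1.87 ± 0.22, PXN, the adaptor paxillin, by 0.81 ± 0.18, and LASP1, an actin-binding protein of focal adhesions, by 1.66 ± 0.13. ARPC2, a subunit of the ARP2/3 actin nucleator, and CDC42, a GTPase that activates it through WASP proteins, fell by 0.80 ± 0.12 and 0.64 ± 0.17. RDX, the actin-membrane linker radixin, averaged 12.39 with miR-203a and 10.89 with miR-NC and rose. Of 25 genes of the SRC and focal adhesion list 5 fell and 2 rose, and of 30 actin and myosin genes 3 fell and 3 rose. SRC, RAPGEF1, LASP1, SNAI2, RUNX2, ATM and MSI2 belong to a list of 24 tested genes that the literature names as miR-203a targets, of which 10 fell and 1 rose (median -0.45). Those 7 were the members lying directly below both other precursors.

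Integrins split. ITGB8, the beta-8 integrin that activates latent TGF-beta, had the largest rise of all, to 10.02, 9.34 and 9.19, against 6.35, 6.05 and 6.49 with miR-NC (3.22 ± 0.30, adjusted p = 3.2e-10). It averaged 9.93 with miR-205 and 10.08 with miR-429, and did not differ from either at the threshold. ITGB3, the beta-3 integrin, rose by 1.46 ± 0.23 and was directly above both, at 7.95, 7.41 and 7.83, against means of 6.53 with miR-205, 6.11 with miR-429 and 6.27 with miR-NC. ITGA6, a laminin-binding integrin, rose by 1.03 ± 0.12, while ITGA3 and ITGA5, which bind laminin and fibronectin, fell by 0.70 ± 0.22 and 0.62 ± 0.17. Of 19 integrin and laminin genes 4 rose and 4 fell, and leaving out 5 of the 6 arrays in turn left 1 or 2 of the falls.

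In the matrix, LOX, the enzyme that crosslinks collagen and elastin, read 5.65, 5.09 and 5.55 with miR-203a, against 7.54, 7.60 and 7.77 with miR-NC (-2.21 ± 0.30, adjusted p = 7.9e-07). With miR-429 it averaged 4.46, directly below the miR-203a arrays. COL4A1, a basement membrane collagen, fell by 1.39 ± 0.11 and TNC, tenascin C, by 1.31 ± 0.15, whereas LOXL2 rose by 0.83 ± 0.12 on 1 of 4 probe sets, with an average over them of 0.27 that did not pass. INHBA, the subunit of activin A, read 7.18, 7.29 and 7.18, against 8.76, 8.46 and 8.67 with miR-NC (-1.41 ± 0.11, adjusted p = 3.9e-12). That is 1 of its 3 probe sets, and the others differed by -0.13 and 0.38 without passing. Of 27 tested TGF-beta and BMP genes 5 rose and 2 fell. The rises were the receptors TGFBR1 (1.13 ± 0.14, on 1 of 3 probe sets), TGFBR3 (0.99 ± 0.14), ACVR2A (0.89 ± 0.18) and BMPR2 (0.57 ± 0.15) and the corepressor SKIL (0.69 ± 0.13), while the receptor TGFBR2 differed by 0.15 ± 0.17. ACVR2A passed on 1 of 2 probe sets, the other differing by -0.05. BMPR2 passed on 1 of 6, which ranged from -0.35 to 0.57, and SKIL on 1 of the 4 that exceeded 4.89 in some group. Junction genes gave 6 rises and 0 falls of 30, with a median of 0.19. They were led by PKP2, a desmosomal plakophilin (1.22 ± 0.18), and TJP1, the tight junction protein ZO-1 (1.13 ± 0.11), and none lay directly above both miR-205 and miR-429. Of 13 core EMT genes 0 rose and 1 fell, the transcription factor SNAI2. In the fit without the arrays labelled untransfected 1 rose (7.69%, where 8.99% of all genes rose) and 1 fell.

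Few of the 12 largest rises lay directly above both other precursors. DDAH1, which degrades methylated arginines that inhibit nitric oxide synthase, read 11.22, 11.24 and 11.28 with miR-203a, against 8.18, 8.07 and 8.07 with miR-NC. The change of 3.14 ± 0.12 (adjusted p = 5.8e-20) is 8.80-fold, and the gene also stood directly above miR-205 (by 0.54 ± 0.12) and miR-429 (by 1.66 ± 0.12). Both direct differences were smaller than the change against miR-NC, so most of the rise was also seen with miR-205 and part of it with miR-429. FZD5, a WNT receptor, read 9.48, 9.59 and 9.36, against 6.51, 6.40 and 6.65 with miR-NC (2.96 ± 0.14). Its other probe set differed by 0.64 and did not pass. It was directly above both as well, by 0.51 or more, although its means of 8.97 and 8.84 there were far over miR-NC. PGM2L1, which makes glucose 1,6-bisphosphate, read 8.25, 8.43 and 8.57, against 6.01, 6.14 and 6.34 with miR-NC and lay 1.82 above miR-205 and 2.08 above miR-429 in the direct contrasts. MGAT4A, a Golgi enzyme that branches N-glycans, rose by 1.84 ± 0.19, and SCML1, a polycomb-related protein, by 1.73 ± 0.23, each directly above both. EFCAB13-DT, a divergent transcript, was above both as well and read 5.66, 5.56 and 5.76, against 3.86, 3.74 and 3.54 with miR-NC, where it lay near background (1.94 ± 0.27).

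The other 9 of the 12 did not lie directly above both. PKIA, an inhibitor of protein kinase A, rose by 3.13 ± 0.49 but averaged 9.61 with miR-205. COMMD10 (2.43 ± 0.17), ERLIN1, a lipid raft protein of the endoplasmic reticulum (2.12 ± 0.12), MFAP3L (means of 10.57 with miR-203a and 8.57 with miR-NC) and RDH11, a retinal reductase (1.97 ± 0.12), were likewise high with the other precursors. ERLIN2, the partner of ERLIN1, read 9.56, 9.67 and 9.32, against 7.24, 7.54 and 7.66 with miR-NC, and was higher still with miR-205 (10.55) and miR-429 (10.52). ASPH, an aspartyl hydroxylase of EGF-like domains, showed the same order, with a change of 2.71 ± 0.14. Only 2 of its 9 probe sets rose, by 2.30 and 2.71, and the other 7 differed by -0.23 to 0.04. SLC11A2, the iron and metal importer DMT1, rose by 2.25 ± 0.19, but only 2 of its 5 probe sets rose and 1 fell by 0.72.

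Cholesterol synthesis had the highest median change of the 70 lists, 0.45, beside 0.0039 for all genes. Of its 16 tested enzymes 8 rose and 0 fell, and leaving out 1 array left 6 to 8 rises. IDI1, the isomerase that makes the isoprene units interchangeable, read 11.48, 11.63 and 11.65 with miR-203a, against 10.63, 10.64 and 10.68 with miR-NC (0.94 ± 0.12, adjusted p = 1.6e-07). SC5D, a late desaturase of the pathway, read 12.54, 12.52 and 12.43, against 11.60, 11.66 and 11.57 (0.89 ± 0.11, adjusted p = 8.7e-08). Both groups' arrays were well apart in each, and both genes lay directly above miR-205 and miR-429. SC5D passed on 1 of its 2 probe sets, the other differing by 0.24. For IDI1, 2 of 4 probe sets rose, and the others differed by 0.11 and -0.13 and did not pass. Leaving out probe sets whose names mark possible cross-hybridisation, which includes both that rose, left 4 rises and 0 falls on the list and a median of 0.23.

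HMGCS1, which makes the precursor of mevalonate (0.86 ± 0.18), TM7SF2 (0.81 ± 0.26), NSDHL (0.68 ± 0.14), HSD17B7 (0.60 ± 0.14) and MSMO1 (0.49 ± 0.10), enzymes of the later sterol steps, and SQLE, the squalene epoxidase (0.39 ± 0.11), completed the rises. Directly against miR-205, 6 members were higher and 1 lower, where 9.58% of all genes were higher and 15.6% lower. Against miR-429, 5 were higher and 0 lower, where 7.08% of all genes were higher and 12.5% lower. Of the 8 rises, only the 2 named above, IDI1 and SC5D, lay directly above both. The most highly expressed members that did not pass were FDPS (0.21 ± 0.11), LSS (0.02 ± 0.14) and ACAT2 (0.27 ± 0.14).

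INSIG1, the protein that holds the sterol sensor SCAP and thereby the factor SREBP in the endoplasmic reticulum, went the other way. It read 7.06, 7.47 and 7.26 with miR-203a, against 8.96, 9.01 and 8.93 with miR-NC (-1.70 ± 0.11, adjusted p = 1.1e-14), and averaged 8.40 with miR-205 and 8.60 with miR-429. Of 19 tested genes of SREBP control and lipoprotein uptake, INSIG1 was the 1 that fell. The 3 that rose were MYLIP, the ligase that degrades lipoprotein receptors (0.80 ± 0.11), VLDLR, such a receptor (0.76 ± 0.23), and MBTPS2, the protease that frees SREBP (0.42 ± 0.11). The cholesterol carriers NPC1 (0.13 ± 0.16) and NPC2 (-0.04 ± 0.12) and the protease MBTPS1 (0.39 ± 0.15) did not pass. Without miR-203a replicate 2, or without miR-NC replicate 2, the list held 1 rise and 1 fall.

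Fatty acid synthesis gave 3 rises and 0 falls of 24. SCD, the desaturase that makes oleate, read 9.79, 9.77 and 9.96, against 8.41, 9.01 and 8.83 with miR-NC (1.09 ± 0.13), and lay directly above both other precursors. ELOVL7, an elongase of long chains, rose by 1.45 ± 0.21 and ACLY, which makes cytosolic acetyl-CoA, by 0.84 ± 0.12. Fatty acid oxidation gave 0 calls of 16.

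**Figure D3:**
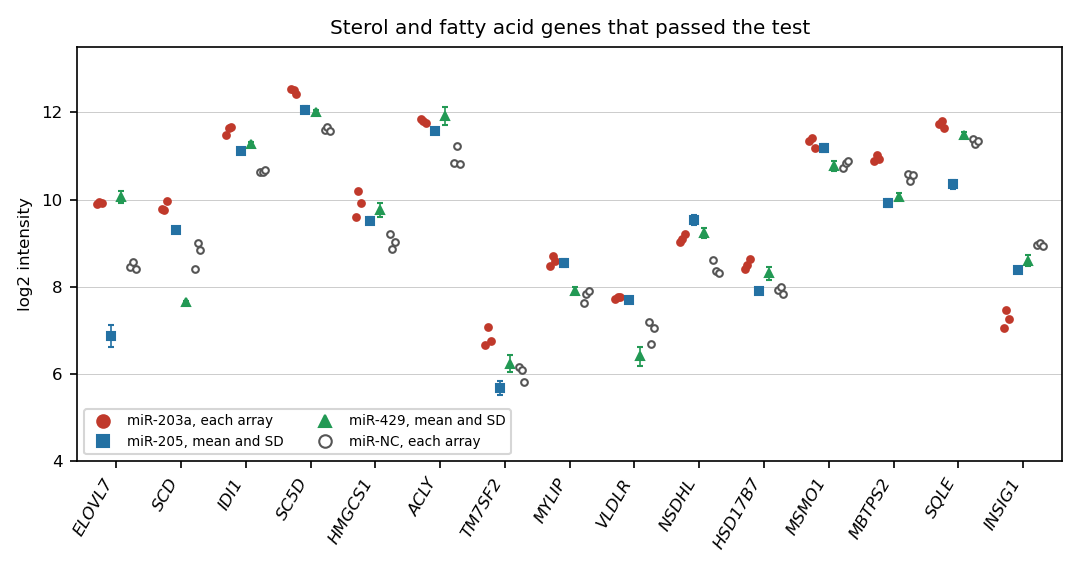
Log2 intensity of the 15 sterol and fatty acid genes that passed the test, ordered by their change, with single arrays for miR-203a and miR-NC and the mean and SD of 3 arrays for miR-205 and miR-429. INSIG1, at the right, is the gene that fell, to 7.06 to 7.47 with miR-203a.

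Promoters of the cholesterol synthesis list are shown because 8 of its 16 tested members rose and 0 fell. RefSeq windows of 300 bases across a gene's start, most of them upstream of it, were found for 14 of the enzymes and searched on both strands for CCAAT, the box bound by the factor NF-Y, and for TCACNCCAC, a form of the sterol response element. CCAAT occurred for 13 of the 14 (92.9%), where 42.3% of the 12382 tested genes with a window held it. It was found for 7 of 17 genes of SREBP control and lipoprotein uptake (41.2%). TCACNCCAC occurred for 0 of the 14 and for 1 of the 17, where 1.49% of the tested genes with a window held it. A gene with several windows counted if any held the motif, and by windows CCAAT was in 15 of 19 (78.9%), where 34.6% of all 35116 windows held it. A match describes these letters and is not a bound site. Capitals mark CCAAT or, where it lies on the other strand, ATTGG, and the 2 can overlap in NSDHL.
TM7SF2: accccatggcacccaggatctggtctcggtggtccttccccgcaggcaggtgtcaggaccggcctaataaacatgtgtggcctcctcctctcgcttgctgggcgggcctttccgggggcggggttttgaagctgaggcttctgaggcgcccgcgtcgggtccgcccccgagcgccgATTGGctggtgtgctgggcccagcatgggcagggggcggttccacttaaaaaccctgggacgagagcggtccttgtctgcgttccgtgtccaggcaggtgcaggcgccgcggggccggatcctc
NSDHL: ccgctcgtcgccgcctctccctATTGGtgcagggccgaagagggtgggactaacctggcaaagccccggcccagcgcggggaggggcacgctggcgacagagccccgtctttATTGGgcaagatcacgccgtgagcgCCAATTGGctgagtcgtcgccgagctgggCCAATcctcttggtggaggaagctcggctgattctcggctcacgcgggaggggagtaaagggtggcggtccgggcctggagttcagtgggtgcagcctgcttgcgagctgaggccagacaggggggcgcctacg
INSIG1: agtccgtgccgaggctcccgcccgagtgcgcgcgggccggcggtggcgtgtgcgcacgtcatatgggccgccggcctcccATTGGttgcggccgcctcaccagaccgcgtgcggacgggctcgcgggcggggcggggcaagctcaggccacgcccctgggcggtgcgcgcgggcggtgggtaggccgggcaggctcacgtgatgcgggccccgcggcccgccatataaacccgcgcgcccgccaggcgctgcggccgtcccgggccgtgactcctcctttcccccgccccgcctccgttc
On GRCh38.p14 and the plus strand these are chr11:65111622-65111921 for TM7SF2, chrX:152830813-152831112 for NSDHL and chr7:155297628-155297927 for INSIG1. INSIG1, which fell, also has the box, so in these windows it does not separate the gene that fell from those that rose. With the box found for 13 of 14 enzymes and 8 of 16 rising, it also occurs for members that did not rise.

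Other transporters and enzymes of metabolism moved singly. SLC30A7, a zinc transporter of the Golgi, read 7.21, 6.95 and 7.08 with miR-203a, against 9.08, 9.06 and 8.89 with miR-NC (-1.93 ± 0.17, adjusted p = 6.3e-11), and SLC39A10, a zinc importer of the plasma membrane, fell by 1.32 ± 0.17. Both were directly below the other precursors. Within the same list of 20 metal genes 5 rose, among them SLC39A14 (0.74 ± 0.14), a transporter of zinc, iron and manganese, and SLC31A1 (0.55 ± 0.17), a copper importer, and without miR-NC replicate 1 there were 2 rises and 2 falls. HMOX1, the heme oxygenase, and TXNRD1, a thioredoxin reductase, fell by 1.11 ± 0.24 and 0.91 ± 0.12, although HMOX1 averaged 7.69 with miR-429, lower than with miR-203a. Glycolysis and hypoxia gave 2 calls of 33 and the TCA cycle and electron transport 1 of 24.

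The G1-S genes held opposing changes, 3 higher and 3 lower of 26. CDK6, a partner of the D-type cyclins, read 9.65, 9.42 and 9.54, against 11.07, 10.85 and 11.11 with miR-NC (-1.47 ± 0.17, adjusted p = 2.3e-08), with all 7 of its probe sets lower and 5 past the test. It was directly below both other precursors. CCNE1, cyclin E1, fell by 0.89 ± 0.16 and CDK4 by 0.52 ± 0.14, while CCND1, cyclin D1, rose by 0.66 ± 0.18, E2F5 by 0.90 ± 0.14 and the inhibitor CDKN1B by 0.48 ± 0.12.

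Counts for the later cell cycle depended on which arrays set the spread. Of 34 mitosis genes 0 passed the test and of 32 DNA replication genes 1 fell, GINS3, a subunit of the replicative helicase. The standard error of these genes was wide in the fit of all 45 arrays, with a median of 0.42 for mitosis genes, against 0.18 for all genes. That fit includes the 3 arrays labelled untransfected HEY, across which mitosis genes had a median SD of 2.03, against 0.10 on the SKOV3 miR-203a arrays and 0.08 on the miR-NC arrays. Without the arrays labelled untransfected the median standard error of mitosis genes was 0.11, and 1 mitosis gene rose and 5 fell (14.7%, where 6.74% of all genes fell in that fit). Of the 32 DNA replication genes 2 rose and 6 fell there (18.8%). BIRC5, which encodes survivin, read 11.48, 11.60 and 11.65 with miR-203a, against 12.05, 12.13 and 12.09 with miR-NC. GINS1, another helicase subunit, read 10.42, 10.39 and 10.41, against 11.25, 11.09 and 11.19. The miR-203a and miR-NC arrays were apart in each, with changes of -0.51 and -0.77 that did not pass in the fit of all 45 arrays but passed without the untransfected ones. The mitosis gene that rose was AURKA, the Aurora A kinase (0.70), and FOXM1, a transcription factor of mitotic genes, had the largest of the 5 falls on that list (-0.59). These last 2 genes were chosen after their values were seen. CCNB1 (0.03), PTTG1 (0.15) and PCNA (0.03) had small changes. Cytosolic ribosomal proteins gave 0 calls of 23 in both fits.

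Genes of the miRNA pathway itself changed. AGO1, an Argonaute, read 8.25, 8.50 and 8.24 with miR-203a, against 9.63, 9.48 and 9.71 with miR-NC (-1.28 ± 0.14, adjusted p = 7.1e-09), and DROSHA, the nuclear processing nuclease, fell by 0.46 ± 0.12. Both lay directly below the other precursors, although AGO1 rests on 1 of 4 probe sets, the others differing by -0.58, -0.0036 and 0.03 without passing. DICER1, the cytoplasmic nuclease, rose by 1.18 ± 0.15, TNRC6A, an Argonaute partner, by 1.10 ± 0.13 and AGO4 by 0.69 ± 0.14, and none of these was above both. For TNRC6A only 1 of 6 probe sets passed, and they ranged from 0.08 to 1.10. DICER1 stood higher with miR-205 (10.68) and miR-429 (10.25) than with miR-203a (9.64).

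Immune genes are to be read against the 11.9% of all genes called, since 4 of 37, 5 of 38 and 2 of 20 passed on the lists of NF-kB and cytokines, interferon response and antigen presentation. Of 37 NF-kB and cytokine genes 0 rose and 4 fell, including CXCL1, a neutrophil chemokine, with a mean of 10.27 with miR-203a and 11.23 with miR-NC (-0.96 ± 0.16). It averaged 10.28 with miR-205 and 10.12 with miR-429. Of 38 interferon response genes 2 rose and 3 fell, with a median of 0.02. IFIT1, an interferon-induced RNA-binding protein, fell by 1.43 ± 0.29 and DTX3L, an interferon-induced ubiquitin ligase, rose by 1.21 ± 0.14. None of 11 sensors of double-stranded RNA passed the test, and EIF2AK2, the kinase PKR, differed by 0.10 ± 0.12. MICB and MICA, stress ligands of the receptor NKG2D, rose by 1.33 ± 0.23 and 0.67 ± 0.12. TNFRSF10A, a death receptor for TRAIL, fell by 0.99 ± 0.15 and was directly below both other precursors. Among circadian clock genes 0 rose and 3 fell of 18, with a median of -0.24. These were PER3 (-0.79 ± 0.17), NR1D2 (-0.73 ± 0.21) and CLOCK (-0.66 ± 0.13), each directly below both.

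**Figure D4:**
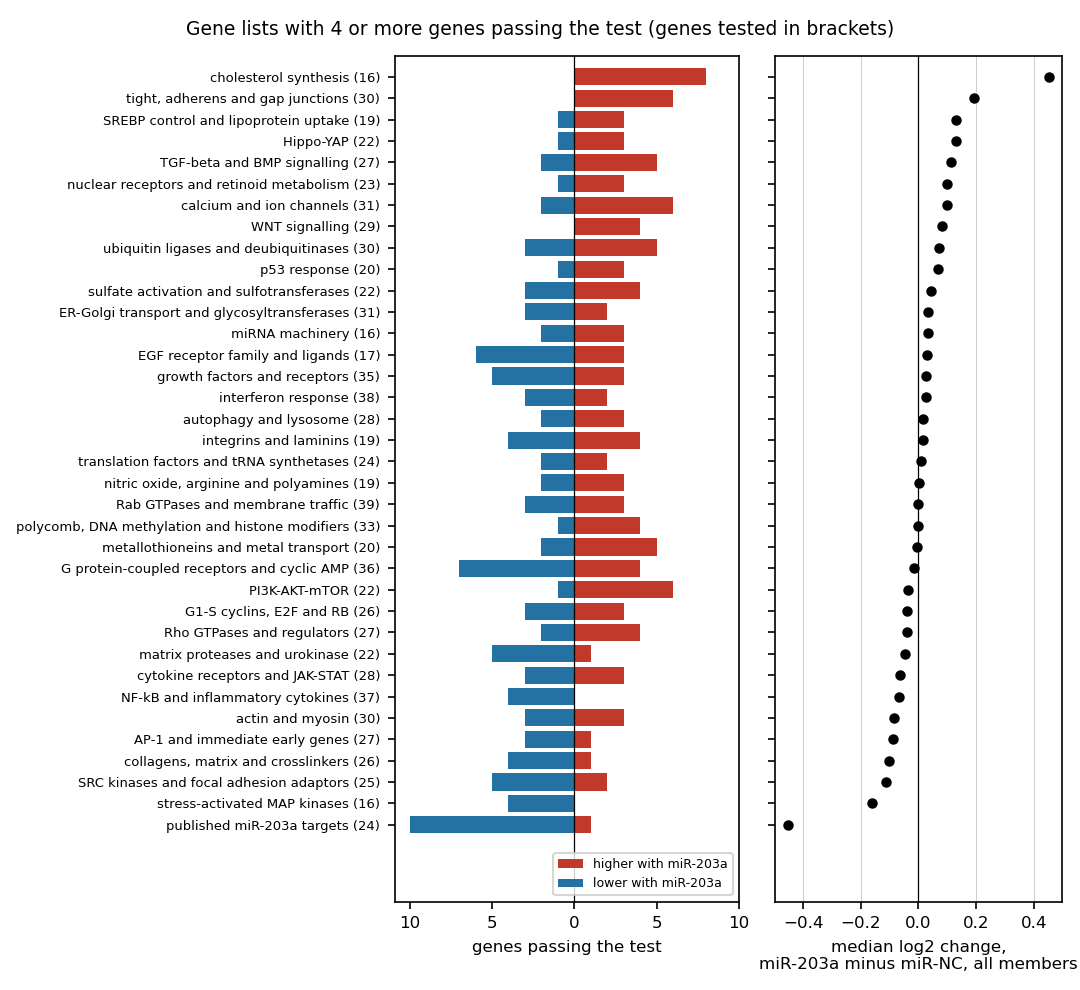
Gene lists with 4 or more genes passing the test, ordered by their median. The left panel counts genes higher (right of 0) and lower (left of 0) with miR-203a than with miR-NC, with the genes tested in brackets, and the right panel gives the median log2 change over all tested members. Cholesterol synthesis, with 8 rises and a median of 0.45, and the published targets, with 10 falls and a median of -0.45, lie at the ends. Of all genes tested, 7.06% were higher and 4.88% lower.

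The same precursor was also given to HEY, the other ovarian line, with its own miR-NC arrays. There 2052 genes changed (13.2%), 908 higher (5.82%) and 1144 lower (7.33%). Rises in both lines numbered 331, which is 30.0% of those in SKOV3 and 36.5% of those in HEY, and shared falls 302, which is 39.7% and 26.4%. Opposite calls were rare, 16 genes higher in SKOV3 and lower in HEY and 7 the reverse. The response itself differed between the lines for 730 genes (4.68%), 477 with a higher response in SKOV3 (3.06%) and 253 with a lower one (1.62%). Of the 1863 genes changed in SKOV3, 371 were among them. The GAPDH 5′ probe set differed by 0.58 between the HEY groups, against -0.0039 in SKOV3, and its part in the difference was not tested. PC3 is given by its count only, 8754 genes or 56.1%, beside a difference of 4.95 in that probe set.

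Several of the largest SKOV3 changes were smaller in HEY. DDAH1 rose by 3.14 in SKOV3 and differed by 0.32 ± 0.12 in HEY, where it was already at 12.99 with miR-NC, and the responses differed by 2.82 ± 0.18 (adjusted p = 1.5e-13). PAPSS2 fell by 2.60 in SKOV3 and differed by -0.47 in HEY, a difference of -2.13 (adjusted p = 2.5e-07). PDAP1, a PDGF-associated protein, read 8.07, 8.67 and 8.43 with miR-203a in SKOV3, against 10.35, 10.29 and 10.12 with miR-NC, and differed by 0.25 in HEY, where it lay at 5.71 and 5.46. Its other probe set differed by -0.50 in SKOV3 and did not pass. MAP3K20 fell in both, by 2.77 in SKOV3 and 0.89 in HEY. INSIG1 fell by 1.70 in SKOV3 and 0.33 in HEY. LIFR fell by 1.76 in SKOV3 and 1.40 in HEY, and MGAT4A rose by 1.84 and 1.60, and neither difference between the lines passed the test. Cholesterol synthesis gave 6 rises and 0 falls of 16 in HEY, with a median of 0.39, and the response differed from SKOV3 for 1 member, SC5D.

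**Figure D5:**
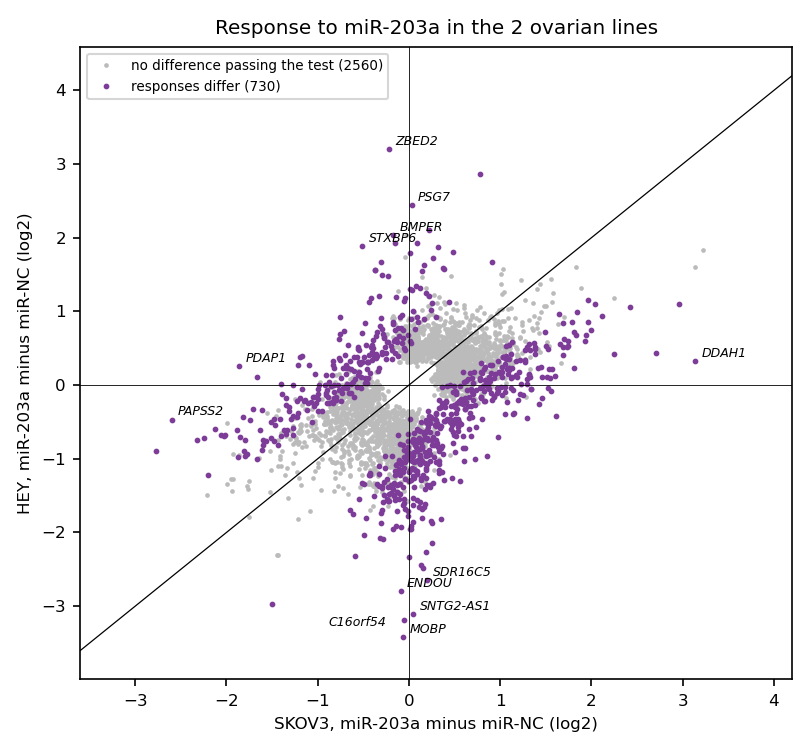
Log2 change with miR-203a in SKOV3 (horizontal) and HEY (vertical) of the 3290 genes that passed the test in either line or in the difference between them; purple marks the 730 genes whose responses differ, and the diagonal marks equal responses. The 6 highest and 6 lowest differences are named, and most of those at the top and bottom lie near 0 in SKOV3.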

How the data were processed

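Values for 54675 probe sets on 45 arrays were used as the authors deposited them, log2 intensities made by RMA per the submitters' processing notes, whose version and the arrays normalised together are not given in the sources used here. Groups came from the sample titles. Each gene was represented by its probe set with the highest mean, among those with 1 gene symbol whose highest group mean exceeded the median of all values, 4.89, which left 15599 genes. limma 3.58.1 in R 4.3.3 fitted 15 group means to all arrays, and Benjamini-Hochberg adjustment ran over all genes at 0.05. Differences against miR-NC, directly against miR-205 and miR-429, and between SKOV3 and HEY came from this fit, and errors are standard errors unless named SD. Intensities carry no counts, so the number of arrays limits precision. The code was tested on simulated data. The genes named were the 12 largest changes each way, up to 6 called members of each list and up to 3 uncalled ones, of which the text gives those of the lists it describes, and the 6 largest each way of the line difference and of changes shared by both direct contrasts, with exceptions stated. Members and lists were chosen with earlier results of these data known. After the files were read, old symbols were updated through RefSeq and PDK1 left the PI3K list. Replicate numbers did not pair the arrays, since deviations of same-numbered arrays correlated at -0.08, 0.04 and -0.07. Alternatives covered the arrays entering the fit, the block, scaling, filtering, probe set choice, the prior, a 2-fold minimum and leaving out each array.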

Additional observations from a re-analysis of the deposited data

Results flagged for a closer look

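The response to miR-203a differed between SKOV3 and HEY, by a test of the difference itself, for 730 genes. The 12 named genes with the largest differences divide by the line in which they moved.

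In 3 of them the change was in SKOV3. DDAH1 differed by 2.82 ± 0.18 between the lines, PAPSS2 by -2.13 ± 0.24 and PDAP1 by -2.12 ± 0.43. The SKOV3 change of PDAP1 passed on 1 of its 2 probe sets. PAPSS2 averaged 11.32 and 11.79 with miR-203a and miR-NC in HEY, well above its 8.85 with miR-NC in SKOV3, and DDAH1 was likewise higher in HEY.

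In the other 9 the change was in HEY, and none of them passed the test in SKOV3. ZBED2, a zinc finger protein, differed by -3.42 ± 0.35: it averaged 9.05 with miR-203a and 9.27 with miR-NC in SKOV3, against 7.59 and 4.39 in HEY. PSG7, a pregnancy-specific glycoprotein, differed by -2.41 ± 0.26, with means of 8.07 and 8.04 in SKOV3 and 6.85 and 4.41 in HEY. Both genes were thus high in SKOV3 with either precursor.

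The remaining 7 lay below 4.89 in both SKOV3 groups, so a change there could hardly be measured. MOBP differed by 3.36 ± 0.44, SNTG2-AS1 by 3.16 ± 0.48, C16orf54 by 3.14 ± 0.29, SDR16C5 by 2.84 ± 0.36 and ENDOU by 2.71 ± 0.28, all lower with miR-203a in HEY. STXBP6 differed by -2.39 ± 0.32 and BMPER by -2.21 ± 0.31, both higher with miR-203a in HEY.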

How the results depend on the processing

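Counts moved with the 2-fold minimum, the arrays entering the fit and the probe sets tested. The response difference between SKOV3 and HEY gave 1712 genes from only the arrays compared and 1197 without those labelled untransfected, where 214 genes lay above miR-NC, miR-205 and miR-429. Testing every probe set gave 2927 for the change against miR-NC, 1227 for the line difference, 7015 and 4926 directly against miR-205 and miR-429, and 586 below all 3. A 2-fold minimum gave 362, 349, 812 and 579, with 31 above and 131 below all 3. Leaving out 1 array gave 1417 to 1544, 498 to 624, 3091 to 3440 and 2269 to 2683, with 83 to 136 above and 321 to 357 below all 3. The replicate block gave 1856, 742, 3940 and 3036, with 134 and 387, so pairing by number changed no count by over 1.5 times.

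Of 124 called genes named, 97 stayed past the threshold under every setting other than the 2-fold minimum, 111 in every fit without 1 array and 91 in both. Those lost under some setting were AGO1, BMPR2, CBL, CDC42, CHST11, ERLIN2, FZD5, GRB2, HMGCS1, HS2ST1, IDI1, INSR, ITGA3, ITGA5, LOXL2, MYLIP, NRG1, PDPK1, PER3, SC5D, SHC1, SKIL, SLC11A2, SQLE, TGFBR1, TM7SF2 and TNRC6A. The 13 lost without some array were BMPR2, CDC42, CDKN1B, DROSHA, ITGA3, ITGA5, MBTPS2, NR1D2, SHC1, SLC31A1, SQLE, TM7SF2 and VLDLR, with adjusted p up to 0.16 in limma.

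Without cross-hybridising probe sets, SLC11A2 turned to -0.72 and IDI1 to -0.13, both on another probe set, the SRC list held 1 rise and 3 falls, the sulfation list 2 and 2 and the miRNA list 2 and 1. Averaging probe sets left 3 rises and 1 fall on the TGF-beta list. The other reversals were of differences near 0 that had not passed. Under quantile scaling LSS was -0.0088 and PSG7 -0.028, under averaging CCNB1 was -0.065 and EIF2AK2 -0.024, and without cross-hybridising probe sets CCNB1 was -0.16 and STXBP6 0.090. Leaving out 1 array in turn, the SKOV3 difference spanned -0.045 to 0.136 for CCNB1, -0.050 to 0.113 for PCNA, -0.068 to 0.070 for LSS, -0.160 to 0.020 for GADD45A, -0.200 to 0.105 for MOBP, -0.014 to 0.119 for SNTG2-AS1, -0.128 to 0.051 for C16orf54, -0.208 to 0.013 for ENDOU, -0.011 to 0.076 for PSG7 and -0.312 to 0.00026 for BMPER. The causes were not tested. The planned share of genes with a seed site in the 3′ untranslated region was not run, since no such sequences were used here.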
